A study of Mus musculus with 8 samples.

Results

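The Slc25 genes encode the mitochondrial carriers, a family of transport proteins, and 40 of the 23336 genes counted in newborn mouse skeletal muscle are described here. They were chosen by symbol alone, as every Slc25a gene row of the count table except Slc25a11, Slc25a12, Slc25a13 and Slc25a20, the carriers of the malate-aspartate shuttle and of acylcarnitines, which were set aside. RNA of skeletal muscle was sequenced in 8 samples, 4 of ΔDMR1-U2 and 4 of wild-type mice, all C57BL/6, female by their labels and at postnatal day 2. The mutants lack a stretch of the Igf2 locus, a region imprinted by parental origin whose product is a growth factor, and the controls are intact there. The muscle taken, and whether the deletion was carried on 1 or both alleles and came from mother or father, was not given in the sources read.

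Mitochondrial carriers are small proteins of the inner mitochondrial membrane, built from repeats of a helix pair around a central substrate site that opens to one side of the membrane at a time. They move adenine nucleotides, phosphate, carboxylic acids, amino acids, cofactors and iron between the cytosol and the matrix, which is otherwise sealed. In muscle the exchange of ADP for ATP and the import of phosphate serve the respiratory chain's supply of ATP to the myofibrils. A few members sit elsewhere, in the outer mitochondrial membrane or in peroxisomes.

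The libraries held 16084413 to 26913636 counts, and levels are given in CPM, each count relative to its library's size after TMM scaling (trimmed mean of M values). The libraries of each group are named 1A, 1B, 2 and 3, and 4 values in a row are given in that order. The 10 skeletal muscle marker genes, among them Acta1, Ckm and Ttn, summed to 162246 to 182753 CPM in ΔDMR1-U2 and 177959 to 210015 CPM in wild-type, and none was at 0. Igf2as, the gene antisense to Igf2, was at 5.54 to 6.18 CPM in ΔDMR1-U2 and 54.4 to 72.2 CPM in wild-type libraries. Igf2 itself was at 4759 to 5617 CPM in ΔDMR1-U2 and 4587 to 5188 CPM in wild-type, with a log2 fold change of 0.05. ΔDMR1-U2 library 1A went against its female label, with 2.5 CPM of Xist, which coats the inactive X chromosome, against 1269 to 1894 CPM in the other 7 libraries. ΔDMR1-U2 library 1B lay at one end of the first principal component, where its score was -41.7 and those of all other libraries ran from -16.9 to 23.9. It also held 601 CPM of white adipocyte markers, against 179 to 266 CPM in the other 7 libraries. Values without 1 or both of these libraries are given for the members described in most detail. In whole tissue, fewer cells of a type and less RNA per cell cannot be told apart.

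No Slc25 gene passed an adjusted p of 0.05 between mutant and wild-type muscle. Of the 40 members, 35 passed the filter on low counts, 0 were called by edgeR (quasi-likelihood F, Benjamini-Hochberg), and 1.13% of all 15241 tested genes were, 0.512% as higher and 0.617% as lower in ΔDMR1-U2. At an unadjusted p under 0.05 stood 7 of the 35 members, or 5 with higher and 2 with lower values in ΔDMR1-U2, where 21.3% of all tested genes did, 10.4% higher and 10.9% lower, so the members' share is near the background. Without library 1B it was 10 of 35, against 16.2% of all genes, and without 1A and 1B together 4 of 35, against 13.4%. DESeq2 called 2 of the 35 members, Slc25a22 and Slc25a34, both higher in ΔDMR1-U2, where it called 6.15% of all genes, 2.82% as higher and 3.32% as lower. The groups did not overlap in 6 members, Slc25a1, Slc25a15, Slc25a22, Slc25a34, Slc25a36 and Slc25a46, and in 12.8% of all tested genes. The authors' deposited table holds 0 of the 40 members under an adjusted p of 0.05, where 0.887% of its genes are, and 4 under an unadjusted p of 0.05, where 9.4% of its genes are.

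The family's fold changes were centred near 0. The median log2 fold change of ΔDMR1-U2 over wild-type was -0.02 over the 35 tested members and 0.00 over all tested genes, with 16 members above and 19 below 0. Members ran from -0.51 for Slc25a35 to 1.05 for Slc25a27. In 25 of 35 the difference was under 1.2-fold either way. In 24 of 35 the 95% interval of the difference lay within 1.5-fold either way, and in 30 it lay within 2-fold. Of each library's counts, the 40 members together took 0.232% ± 0.0118 in the mutants and 0.23% ± 0.0147 in the controls (SD, n = 4 each).

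Promoters were considered for Slc25a4, the most abundant member, and for the members at an unadjusted p under 0.05. Those of Slc25a15, Slc25a22 and Slc25a34 are shown. Each is the 250 bases before a start of transcription in RefSeq on GRCm38.p6, the assembly of the mm10 build, written on the strand of the gene. Windows with more than 30 bases in an exon of the gene's own GENCODE annotation were left out, among them those of Slc25a3, Slc25a4 and Slc25a36. Capitals mark letters that match one of the motifs searched, which were GCGCA and GCGC with any 1 base between, bound by NRF1, TCAAGGTCA, bound by oestrogen-related receptors, CACGTG, an E-box, TGACGTCA, the cyclic AMP response element, and CCAAT.
Slc25a15, chr8:22398622-22398871, minus strand: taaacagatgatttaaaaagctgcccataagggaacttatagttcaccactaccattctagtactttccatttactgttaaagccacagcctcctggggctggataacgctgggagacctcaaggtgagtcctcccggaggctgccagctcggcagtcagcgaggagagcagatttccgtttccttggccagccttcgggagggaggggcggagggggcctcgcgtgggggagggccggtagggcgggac
Slc25a22, outer start, chr7:141437875-141438124, minus strand: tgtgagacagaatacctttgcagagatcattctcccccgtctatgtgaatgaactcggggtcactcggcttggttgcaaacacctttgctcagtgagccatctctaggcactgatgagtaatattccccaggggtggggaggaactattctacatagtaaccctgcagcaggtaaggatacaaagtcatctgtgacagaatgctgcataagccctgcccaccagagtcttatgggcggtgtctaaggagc
Slc25a22, inner start, chr7:141435376-141435625, minus strand: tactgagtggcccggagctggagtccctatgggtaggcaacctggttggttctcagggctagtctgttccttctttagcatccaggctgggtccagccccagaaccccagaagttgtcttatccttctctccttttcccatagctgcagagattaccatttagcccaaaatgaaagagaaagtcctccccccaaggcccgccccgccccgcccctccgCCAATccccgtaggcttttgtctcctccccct
Slc25a34, chr4:141623835-141624084, minus strand: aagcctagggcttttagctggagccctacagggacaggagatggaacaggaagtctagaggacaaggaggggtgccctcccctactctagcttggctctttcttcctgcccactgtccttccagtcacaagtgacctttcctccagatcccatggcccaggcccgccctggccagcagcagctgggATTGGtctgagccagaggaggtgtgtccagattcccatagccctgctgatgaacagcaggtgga

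Slc25a34 has CCAAT on the opposite strand in its window, the inner start of Slc25a22 has CCAAT on the strand of the gene, and the outer start of Slc25a22 and the window of Slc25a15 hold none of the 5 motifs. The set of RefSeq promoters used here held 30 of the 40 members, in 39 windows, and both strands were searched. Members with no entry in that set include Slc25a2, Slc25a26, Slc25a27, Slc25a32, Slc25a35, Slc25a37, Slc25a41, Slc25a44 and Slc25a46. CCAAT was in 18 of the 39 windows, against 33.8% of all 32851 windows of this length, and the E-box was in 7 of 39, against 6.02%. The NRF1 letters were in 2 of 39, against 3.74%, the cyclic AMP response element was in 2 of 39, against 1.55%, and the oestrogen-related receptor letters were in 0 of 39, against 0.387%. A match describes the letters in the window only. No motifs overlap in the windows shown.

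One carrier made up about as much of the counts as the other members together. Slc25a4, the ADP/ATP carrier of heart and skeletal muscle, held 51.5% ± 1.09 of the family total in the mutants and 52.1% ± 2.26 in the controls (SD, n = 4 each), from 49.5% in wild-type library 2 to 54.7% in wild-type library 1A. The total leaves out the 4 carriers set aside. With counts divided by merged exon length it had 62% ± 1.57 and 62.7% ± 2.18. Per length, its mean over the 8 libraries was 509 CPM per kb, ahead of Slc25a5, the ADP/ATP carrier of dividing cells, at 96.9 CPM per kb, and Slc25a3, the phosphate carrier, at 61.2 CPM per kb. Slc25a24 followed at 24.1 and Slc25a34 at 18.7 CPM per kb, and Slc25a35 was the lowest tested member at 0.167 CPM per kb. The order of Slc25a3 and Slc25a5 rests on the length used: per kb of the longest coding transcript, an alternative added after the values were seen, Slc25a3 was at 211 and Slc25a5 at 129, with Slc25a4 at 622.

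**Figure D1:**
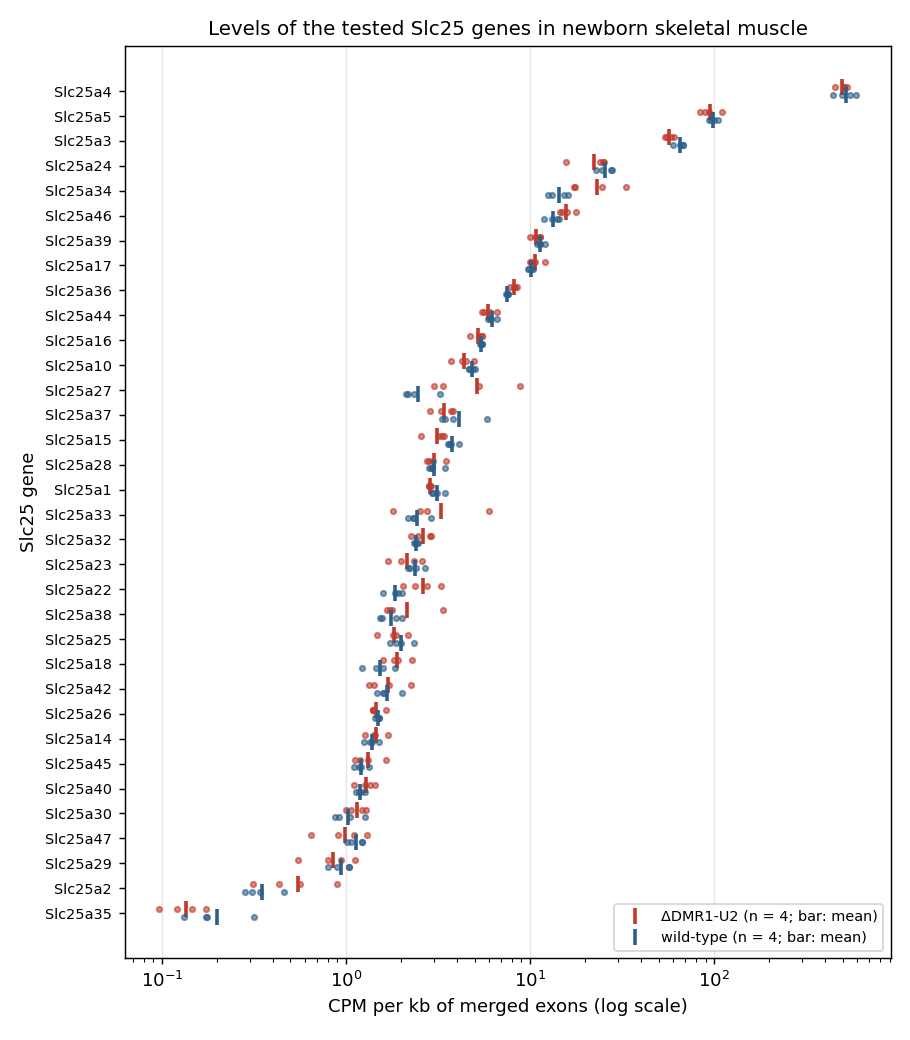
Levels of 34 of the 35 tested Slc25 genes in CPM per kb of merged exons on a log scale, one row per gene, with ΔDMR1-U2 libraries in red and wild-type libraries in blue (points: libraries, n = 4 each; vertical bars: means). Slc25a4, at 442 to 589 CPM per kb, lies apart from all other members, and Slc25a5, at 84.2 to 111, and Slc25a3, at 54.3 to 67.9, come next.

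The 6 tested adenine nucleotide and phosphate carriers all had mean values slightly below wild-type, and none was called. They had log2 fold changes from -0.20 to -0.06, with a median of -0.12, and 1 of them, Slc25a3, stood at an unadjusted p under 0.05. The 10 skeletal muscle markers had a median of -0.20, and 0 of them were called. Their part in the carriers' values was not tested. Slc25a4, at chr8:46206797-46211284, was at 1067, 1199, 1194 and 1238 CPM in ΔDMR1-U2, and at 1386, 1173, 1039 and 1287 CPM in wild-type. The highest and the lowest library were both wild-type. The means were 1174 ± 74.5 and 1221 ± 149 CPM (SD, n = 4 each), with a log2 fold change of -0.06 and a 95% interval from -0.27 to 0.15. That change was -0.07 without library 1B, -0.01 without 1A and -0.01 without both.

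Slc25a3, at chr10:91116574-91124059, imports the phosphate that ATP synthase joins to ADP. It was at 301, 308, 323 and 336 CPM in ΔDMR1-U2, and at 377, 361, 333 and 376 CPM in wild-type. The groups overlapped in 1 place, where ΔDMR1-U2 library 3 lay above wild-type library 2. The means were 317 ± 15.6 and 362 ± 20.5 CPM, with a log2 fold change of -0.19, a standard error of 0.07 and an adjusted p of 0.15 (edgeR). The difference was -0.18 without library 1B, -0.16 without 1A and -0.14 without both. The gene has alternative exons, one form of which is known from heart and muscle, and counts per gene do not separate them.

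Slc25a5, at chrX:36795651-36798807, was at 148, 183, 139 and 154 CPM in ΔDMR1-U2, and at 174, 164, 159 and 155 CPM in the wild-type libraries. Library 1B was the highest of all 8, and the other ΔDMR1-U2 libraries lay below every wild-type library, library 3 by little. Its log2 fold change was -0.06, with an interval from -0.25 to 0.13, and -0.15 without library 1B. Without 1A it was -0.03, and without both -0.15. Of its 50-base stretches, 33.8% also occur in transcripts of other genes, chiefly the processed pseudogenes Gm5560 and Gm5529, so its count is uncertain. The calcium-regulated carriers that exchange ATP-Mg for phosphate, Slc25a23, Slc25a24 and Slc25a25, had log2 fold changes of -0.13, -0.20 and -0.11. Slc25a24 was at 82.3, 53.6, 86.7 and 85.1 CPM in ΔDMR1-U2, against 78.6 to 95.5 CPM in wild-type, and its difference was -0.06 without library 1B.

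Ratios within a library compared carriers of related function without the scaling between libraries. The log2 count ratio of Slc25a4 to Slc25a5, the muscle form against the form of dividing cells, was 2.85, 2.71, 3.11 and 3.0 in ΔDMR1-U2, and 2.99, 2.84, 2.71 and 3.06 in wild-type. The difference of 0.02 was smaller than the spread between libraries (exact two-sided permutation test, p = 0.8, adjusted over 3 ratios 0.8). The log2 ratio of Slc25a3 to Slc25a4 was -1.82, -1.96, -1.88 and -1.88 in ΔDMR1-U2 and -1.88, -1.70, -1.64 and -1.77 in wild-type. All ΔDMR1-U2 libraries lay below 3 of the wild-type libraries, and wild-type library 1A lay among them. The difference was -0.14 (exact permutation p = 0.0571, adjusted 0.171), where 4 libraries against 4 allow no p below 0.0286.

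**Figure D2:**
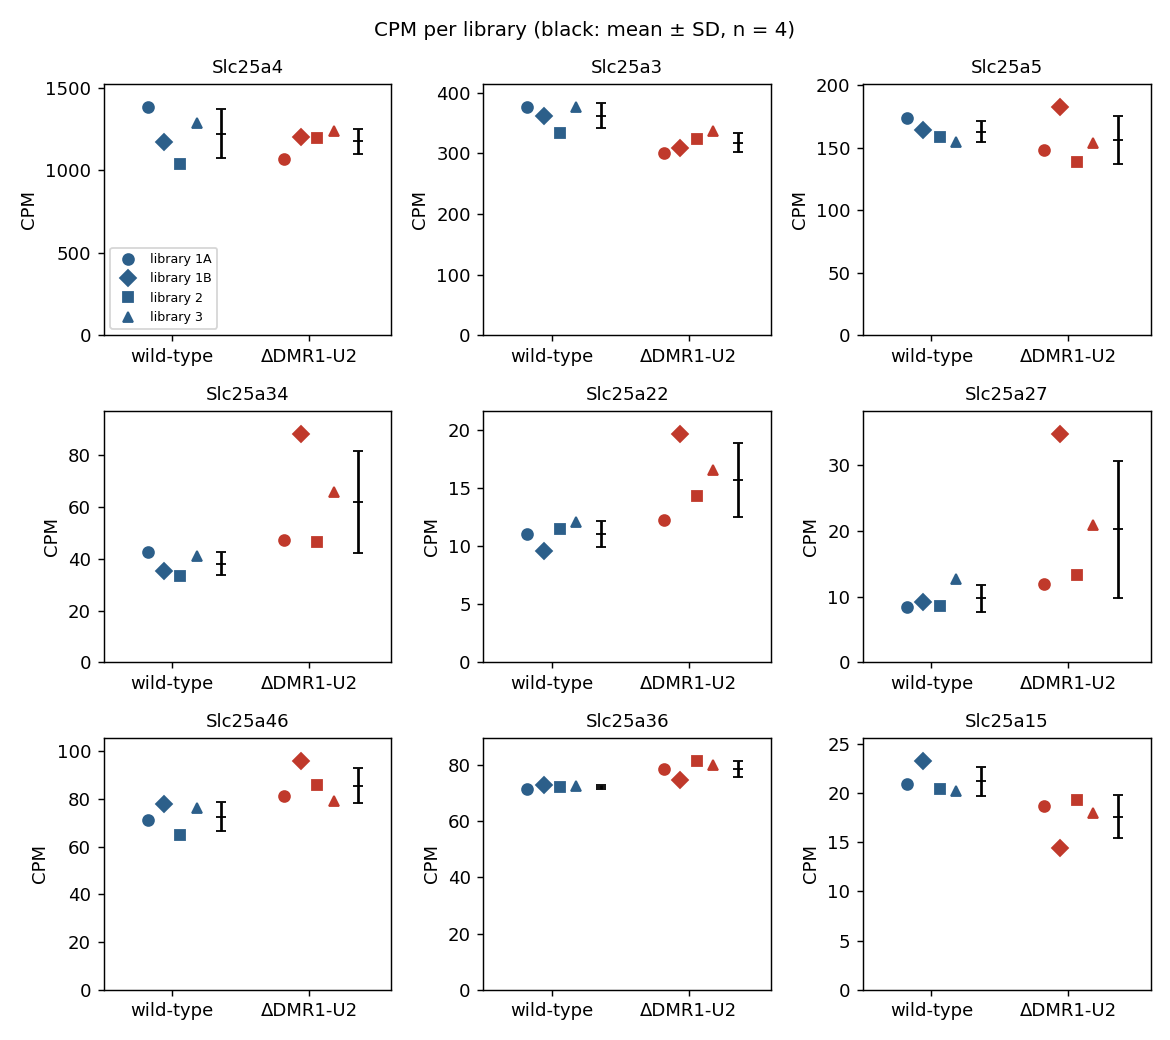
CPM of 9 Slc25 genes in each library, on linear axes from 0 (blue: wild-type, red: ΔDMR1-U2; symbols mark the library names; black: mean ± SD, n = 4). Slc25a34, Slc25a22 and Slc25a27 are highest in ΔDMR1-U2 library 1B, at 88.4, 19.7 and 34.7 CPM, and next highest in library 3, while Slc25a4 overlaps between the groups.

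Slc25a34 had the smallest p of the family. It is a carrier whose substrate is little known. Its values were 47.2, 88.4, 46.4 and 65.7 CPM in ΔDMR1-U2, and 42.8, 35.3, 33.6 and 41.1 CPM in wild-type. All ΔDMR1-U2 libraries lay above all wild-type libraries, libraries 1A and 2 by little and 1B by most. The means were 61.9 ± 19.8 and 38.2 ± 4.46 CPM, 1.63-fold apart, with a log2 fold change of 0.70, a standard error of 0.19 and an adjusted p of 0.0845 (edgeR). DESeq2 gave an adjusted p of 0.00736, and the authors' deposited table gives 0.359. When ΔDMR1-U2 library 2 was left out, edgeR called it (adjusted p = 0.0403), in a fit that called 4.1% of all genes, 1.91% as higher and 2.19% as lower. Over the 8 fits that each left out 1 library its adjusted p ran from 0.0403 to 0.195. The difference was 0.48 without library 1B, 0.82 without 1A and 0.56 without both. The gene lies at chr4:141618824-141623821, and its exons overlap no other annotated gene.

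Slc25a22 and Slc25a18 are the mitochondrial glutamate carriers, which bring glutamate into the matrix with a proton. Slc25a22 was at 12.3, 19.7, 14.3 and 16.6 CPM in ΔDMR1-U2, and at 11.1, 9.56, 11.5 and 12.1 CPM in wild-type. The groups did not overlap, though library 1A exceeded the highest wild-type library by a small margin. The means were 15.7 ± 3.18 and 11.1 ± 1.08 CPM, with a log2 fold change of 0.51, a standard error of 0.14 and an adjusted p of 0.0914 (edgeR). DESeq2 gave 0.0248, and the authors' deposited table gives 0.223. The difference was 0.38 without library 1B, 0.61 without 1A and 0.48 without both. Slc25a22 lies at chr7:141429744-141437892, on the chromosome of Igf2 and 1.21 megabases from it. Slc25a18 was lower in level, at 3.63 ± 0.554 and 2.93 ± 0.507 CPM, with a log2 fold change of 0.31 and an interval from -0.06 to 0.69.

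Slc25a27, also called uncoupling protein 4 and known mainly from brain, showed the largest difference of the family. Its values were 11.9, 34.7, 13.3 and 20.8 CPM in ΔDMR1-U2, and 8.37, 9.22, 8.60 and 12.7 CPM in wild-type. Library 1B stood far above the rest, and library 1A lay below wild-type library 3. The means were 20.2 ± 10.4 and 9.73 ± 2.03 CPM, with a log2 fold change of 1.05, a standard error of 0.30 and an adjusted p of 0.0969 (edgeR). Without library 1B the log2 fold change was 0.66, without 1A 1.24 and without both 0.81. Over the 8 fits that left out 1 library, the adjusted p ran from 0.0516 to 0.239. Its relatives Slc25a14 and Slc25a30 had log2 fold changes of 0.08 and 0.15, with intervals that include 0.

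The high values of Slc25a34, Slc25a22 and Slc25a27 lay in the same libraries, 1B and then 3. White adipocyte markers, 7 genes, none of them at 0, summed to 256, 601, 234 and 266 CPM in ΔDMR1-U2, and to 179 to 246 CPM in wild-type. Most of each sum was Fabp4, at 222, 436, 198 and 221 CPM in ΔDMR1-U2 and 150 to 180 CPM in wild-type. Adipoq was at 13.5, 37.7, 9.06 and 13.5 CPM, against 10.3 to 22.3 CPM in wild-type. Plin1 was at 9.65, 26.3, 8.94 and 12.3 CPM, against 9.14 to 20 CPM in wild-type. Apart from Fabp4, no white adipocyte marker was above the wild-type range outside library 1B. The 5 brown adipocyte markers summed to 33.6, 49.5, 32.6 and 39.4 CPM, and to 21.9 to 27.1 CPM in wild-type. Among them Cidea, a lipid droplet protein, rose by 1.07 on the log2 scale (adjusted p = 0.0301, edgeR), at 17, 30.7, 16.1 and 24 CPM in ΔDMR1-U2 against 9.93 to 11.2 CPM in wild-type. Of the other brown adipocyte markers, Elovl3 had a log2 fold change of -0.25, Dio2 0.29 and Prdm16 0.17, with adjusted p of 0.559, 0.416 and 0.503 (edgeR). Ucp1, the uncoupling protein that defines brown fat, was at 0 to 0.112 CPM in every library. The 4 Schwann cell markers summed to 131, 101, 105 and 161 CPM in ΔDMR1-U2, with library 1B lowest, and to 43.6 to 91 CPM in wild-type. The 4 keratinocyte markers summed to 12.2, 27.2, 12.2 and 13.1 CPM in ΔDMR1-U2, and to 10.7 to 17.4 CPM in wild-type. Other marker lists varied too. The 4 chondrocyte markers summed to 538, 354, 602 and 29.9 CPM in ΔDMR1-U2, and to 51.9, 736, 1339 and 590 CPM in wild-type. The 5 fibroblast markers summed to 12751, 11034, 13454 and 8961 CPM, and to 11426 to 18874 CPM in wild-type. Endothelial markers summed to 428 to 458 CPM and 446 to 487 CPM, and leukocyte markers to 86.3 to 104 CPM and 95.7 to 135 CPM. The part of these cell types in the Slc25 values was not tested.

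Of the 9 amino acid and glutathione carriers, 5 had higher and 4 lower values in ΔDMR1-U2, with a median log2 fold change of 0.11 that was -0.02 without library 1B. Slc25a15, the ornithine carrier of the urea cycle, had the lowest. It was at 18.7, 14.4, 19.3 and 18.0 CPM in ΔDMR1-U2, and at 20.9, 23.3, 20.4 and 20.2 CPM in wild-type. Every ΔDMR1-U2 library lay below every wild-type library, and 1B lay lowest. Its log2 fold change was -0.27, standard error 0.10 (adjusted p = 0.161, edgeR), and -0.19 without library 1B. Slc25a2, its close relative, had 0.63 on 6 to 24 counts per library, with an interval from -0.14 to 1.4. The 24 counts were in ΔDMR1-U2 library 1A, and without it the log2 fold change was 0.29.

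The other carriers of this group differed less. Slc25a39 and Slc25a40, the glutathione carriers, had log2 fold changes of -0.08 and 0.11. Slc25a39 was the most abundant of the 9, at 29.8 ± 1.78 and 31.4 ± 1.43 CPM, with an interval from -0.23 to 0.08. Slc25a44, the carrier of branched-chain amino acids, had -0.06, and Slc25a29, a carrier of basic amino acids, had -0.14. Slc25a38, which brings in glycine for haem synthesis, was at 4.80, 9.28, 4.59 and 4.88 CPM in ΔDMR1-U2 and at 4.22 to 5.55 CPM in wild-type. Its log2 fold change of 0.29 was -0.02 without library 1B.

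Among the 8 carriers of cofactors, coenzyme A and pyrimidine nucleotides, the median log2 fold change was 0.05 and none was called. Slc25a36, a pyrimidine nucleotide carrier and the most abundant of them, was at 78.8, 74.7, 81.6 and 80.0 CPM in ΔDMR1-U2, and at 71.4, 72.9, 72.2 and 72.6 CPM in wild-type. The groups did not overlap, and the wild-type libraries lay within a narrow range. Its log2 fold change was 0.12, standard error 0.05, with an adjusted p of 0.221 (edgeR). It was 0.15 without library 1B, 0.13 without 1A and 0.16 without both. Slc25a33, the other pyrimidine nucleotide carrier, was at 3.42, 11.3, 5.19 and 4.78 CPM against 4.11 to 5.47 CPM in wild-type. Its log2 fold change of 0.43 was -0.04 without library 1B. Slc25a16 and Slc25a42, carriers of coenzyme A, had -0.05 and 0.01, Slc25a17, the peroxisomal carrier, had 0.08, and Slc25a32, the folate and FAD carrier, had 0.12. Slc25a26, which carries S-adenosylmethionine, had -0.02, with a 95% interval from -0.24 to 0.20.

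**Figure D3:**
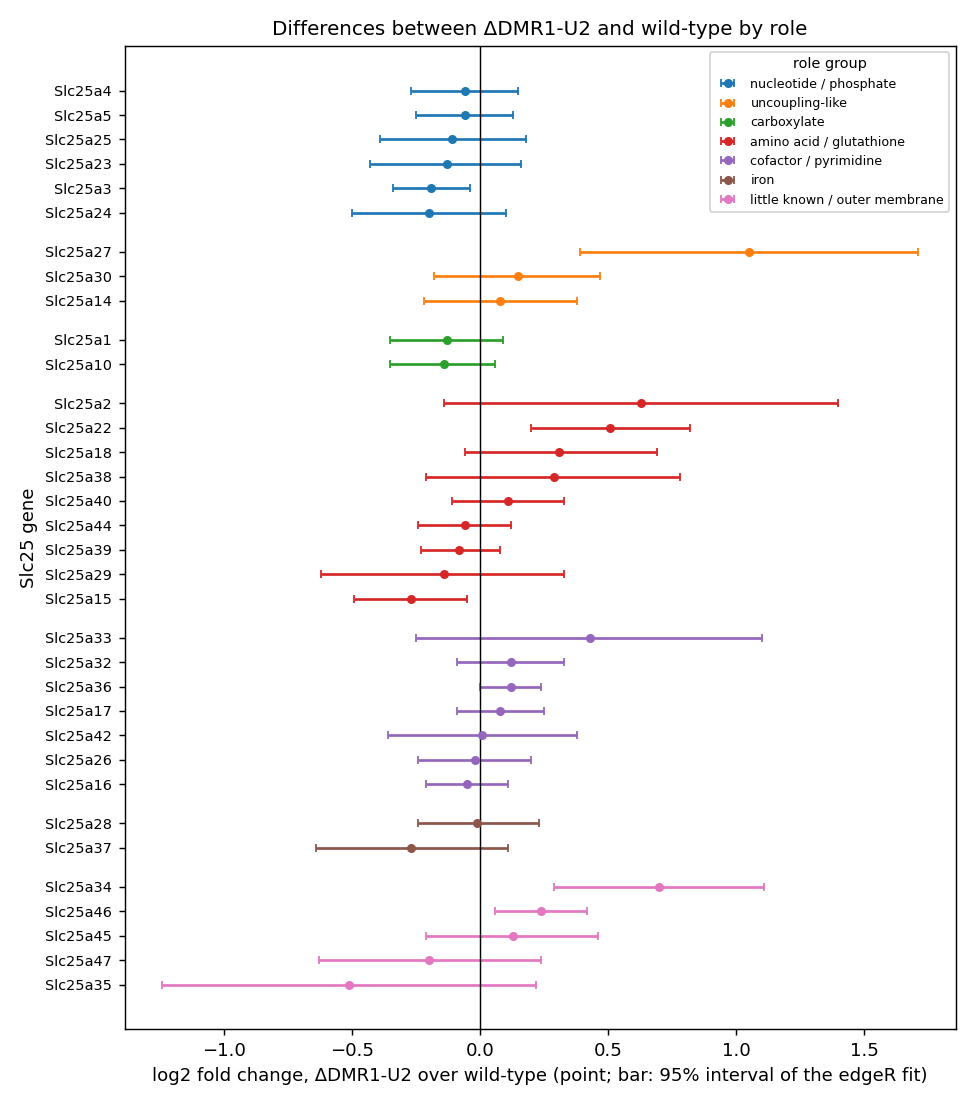
Log2 fold change of ΔDMR1-U2 over wild-type for 34 of the 35 tested Slc25 genes, grouped by role (points: edgeR estimate; bars: 95% interval). All 6 nucleotide and phosphate carriers lie left of 0, from -0.20 to -0.06, and Slc25a27, at 1.05, lies farthest right.

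The carboxylate and iron carriers had small differences. Slc25a10, which exchanges malate or succinate for phosphate, was at 15.1 ± 1.78 and 16.6 ± 0.554 CPM, a log2 fold change of -0.14. That change was -0.21 without library 1B, -0.07 without 1A and -0.14 without both. Slc25a1, the citrate carrier, was at 6.12, 6.29, 6.20 and 6.16 CPM in ΔDMR1-U2 and 6.36, 6.43, 7.44 and 6.79 CPM in wild-type, which do not overlap, with a log2 fold change of -0.13 (adjusted p = 0.488, edgeR). Of the mitoferrins, the iron importers, Slc25a28 had -0.01. Slc25a37, mitoferrin 1, known for its role in red cell precursors, was at 22.4, 19.7, 17.3 and 23 CPM in ΔDMR1-U2, and at 20.1, 23.1, 20.9 and 35.1 CPM in wild-type. Wild-type library 3 lay apart, and without it the log2 fold change of -0.27 was -0.05.

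The erythroid markers were also highest in that library. Alas2, the red cell enzyme that starts haem synthesis, was at 71.4 CPM in wild-type library 3 and at 19 to 40.5 CPM in the other 7. The 9 erythroid markers summed to 27.9 to 62.2 CPM in ΔDMR1-U2 and 38.8 to 92.3 CPM in wild-type, with the globin genes Hbb-b1, Hbb-b2 and Hba-a2 at 0 counts in every library. Their part in the Slc25a37 values was not tested. The log2 ratio of Slc25a37 to Slc25a28 was 1.12, 0.58, 0.64 and 1.11 in ΔDMR1-U2 and 0.93, 1.08, 0.93 and 1.44 in wild-type. The groups overlapped, with a difference of -0.23 (exact permutation p = 0.286, adjusted 0.429).

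Slc25a46, an outer membrane member with a part in mitochondrial fission and fusion, was at 81.4, 96.0, 85.8 and 79.3 CPM in ΔDMR1-U2, and at 71.3, 77.9, 64.7 and 76.4 CPM in wild-type. The groups did not overlap, with ΔDMR1-U2 library 3 just above wild-type library 1B. Its log2 fold change was 0.24, standard error 0.08 (adjusted p = 0.139, edgeR), and 0.18 without library 1B. The gene overlaps B930094E09Rik on the opposite strand over 7.06% of its exon bases. Slc25a45 and Slc25a47, of little-known substrate, had 0.13 and -0.20. Slc25a35, a close relative of Slc25a34, had -0.51 on 7 to 18 counts per library, with an interval from -1.24 to 0.22. It overlaps Rangrf on the opposite strand over 31.3% of its exon bases, and no source read states whether counting used strand.

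The remaining 5 members stayed below the filter on low counts. Slc25a21, the oxodicarboxylate carrier, was counted 16, 7, 5 and 12 times in ΔDMR1-U2 and 5, 4, 8 and 8 times in wild-type. Slc25a43, of little-known substrate, had 6 to 11 counts in each library. Slc25a31, the ADP/ATP carrier of germ cells, had 1 to 3 counts, and Slc25a41, a calcium-independent ATP-Mg carrier, 0 to 7. Slc25a48 had 1 count in ΔDMR1-U2 library 2, 1 count in wild-type library 1B and 0 in the other 6. A count of 0 allows a level of up to 3 counts, or 0.112 to 0.195 CPM by library, for counting error only.

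**Figure D4:**
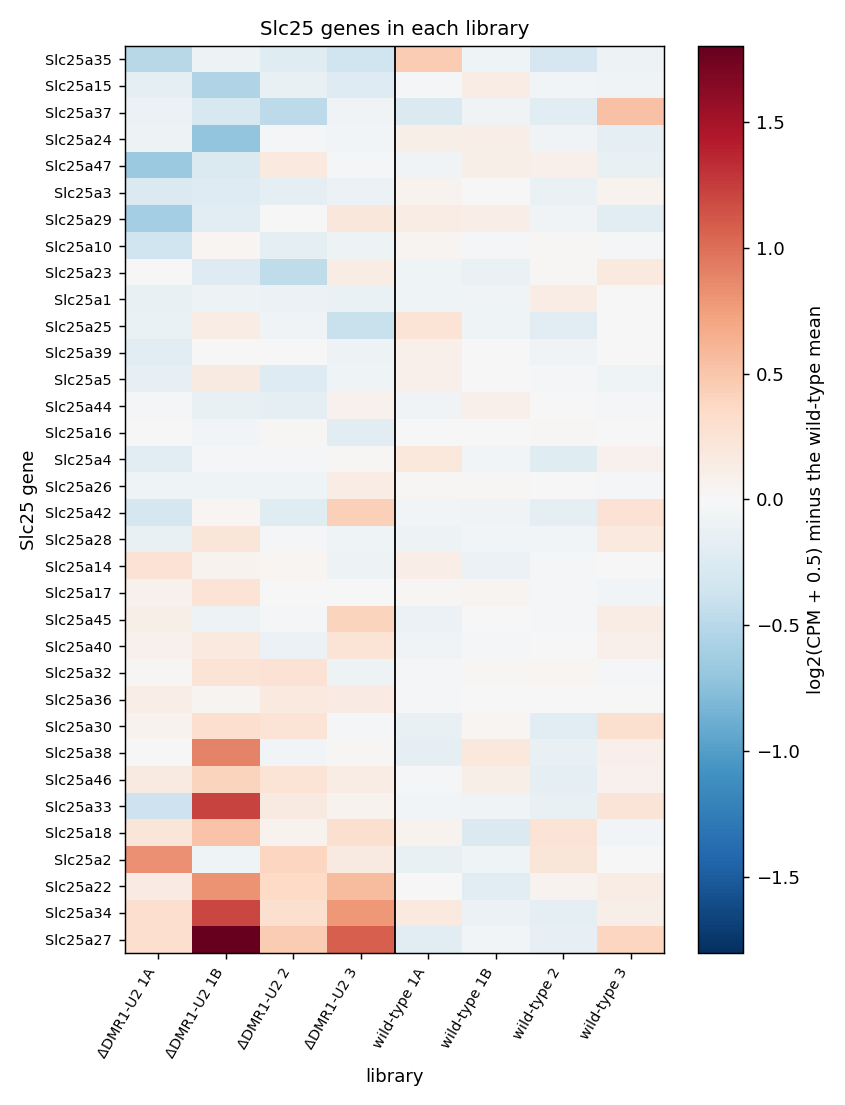
Log2(CPM + 0.5) of 34 tested Slc25 genes (rows) in each library (columns) minus each gene's wild-type mean, from blue (lower) to red (higher), with the vertical line between ΔDMR1-U2 and wild-type. Library 1B holds the highest value of the plot, 1.80 for Slc25a27, and single values there run from -0.71 to 1.80. They run from -0.66 to 0.83 in ΔDMR1-U2 library 1A, -0.47 to 0.45 in 2 and -0.40 to 1.08 in 3. The range over the wild-type columns is -0.30 to 0.53, but these libraries enter the mean subtracted, which draws them towards 0.

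The median of the members' deviations from the wild-type mean, on the log2(CPM + 0.5) scale, was -0.08, 0.04, -0.02 and -0.01 in the mutant libraries. It was between -0.03 and 0.01 in the controls, which themselves make up that mean. In library 1B members ran from -0.71 for Slc25a24 to 1.80 for Slc25a27. The coefficient of variation among ΔDMR1-U2 libraries was 56.7% for Slc25a33, 51.6% for Slc25a27, 45.6% for Slc25a2 and 38.4% for Slc25a38, against 13.2%, 20.9%, 22.9% and 13.3% among wild-type libraries. It was the other way for Slc25a35, at 24.6% against 40.5% in wild-type, and for Slc25a37, at 12.7% against 28.2%. That of Slc25a4 was 6.34% and 12.2%.

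Related genes outside the 40 members were read from lists of the same kind. Over all tested genes, edgeR called 1.13%, and 10.4% had higher and 10.9% lower values at an unadjusted p under 0.05. Among 6 tested genes with the carrier fold but another symbol, 0 were called in either direction, and 2 had higher values at that level. These were Ucp2, at 51.9 ± 10.3 and 39.1 ± 3.59 CPM with a log2 fold change of 0.41, and Ucp3, the uncoupling protein of muscle, at 58.6 ± 13.1 and 45.3 ± 4.25 CPM with 0.37. Mtch1, an outer membrane relative and the most abundant of the list, had -0.10. Of the 4 carriers set aside, 0 were called by edgeR, with -0.27 for Slc25a11, -0.23 for Slc25a12, 0.04 for Slc25a13 and 0.23 for Slc25a20. Of these, 1 had higher and 2 lower values at an unadjusted p under 0.05. DESeq2 called Slc25a11 as lower (adjusted p = 0.0331), where it called 3.32% of all genes as lower.

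Carriers are made in the cytosol and enter through the TOM complex, the small TIM chaperones and the TIM22 insertase. Of 15 tested genes of this route, 0 were called by edgeR in either direction, with a median log2 fold change of -0.06. At an unadjusted p under 0.05, 4 had lower and 0 higher values, against 10.9% and 10.4% of all tested genes. The 4 were Tomm6, Timm13, Timm22 and Tomm40, with log2 fold changes of -0.44, -0.32, -0.26 and -0.21. Tomm70a, the receptor for carriers on the outer membrane and the most abundant of the 15, was at 156 ± 13.3 and 156 ± 14.5 CPM. Of 19 tested genes of other mitochondrial membrane transport, 0 were called by edgeR, and the median was -0.12. At an unadjusted p under 0.05, 3 had lower and 0 higher values, beside the same shares of all tested genes. Vdac1, the most abundant channel of the outer membrane in the list, was at 357 ± 11.9 and 408 ± 24.5 CPM, with -0.19 and an adjusted p of 0.139 (edgeR). DESeq2 called 1 of the import genes, Tomm6, with a log2 fold change of -0.44 in edgeR and an adjusted p of 0.0283 in DESeq2. Over all genes, DESeq2 called 3.32% as lower.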

How the data were processed

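RNA-seq of skeletal muscle from 4 ΔDMR1-U2 and 4 wild-type samples was used. The authors deposited raw read counts per gene and library, with 1 table for all libraries, and replicates were not pooled. Per the submitters' processing notes, the tools were HTSeq 0.5.4p3, TopHat2 2.0.9 with Bowtie2 2.1.0, DESeq2 1.4.5 and FastQC 0.10.1, and the build was mm10. For settings, annotation and strand use, nothing is stated: not given in the sources used here. Per the file headers, that table also has their means of normalised counts, a signal, their fold ratio, its log2 value and their p-values, of which only p-values are printed here.

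Counts were tested in R 4.3.3 with edgeR 4.0.16 (TMM scaling, filterByExpr with a minimum count of 10, glmQLFit and glmQLFTest, Benjamini-Hochberg over 15241 genes, threshold 0.05). Standard errors are the log2 fold change over the root of F. Nothing in the labels says that the 4 samples of a group are separate animals. Whether samples 1A and 1B of a group share a litter, or in wild-type an animal, is not stated. In ΔDMR1-U2, samples 1A and 1B held 2.5 and 1894 CPM of Xist, too far apart for 1 animal. The p-values therefore measure the spread between these samples, which may be technical in part. No libraries were duplicates. The spread between replicates beyond counting error came to 12.3% (edgeR's common coefficient of variation). Tested on simulated data of 15231 genes for this comparison, the fit recovered 62% of 1.5-fold and 92% of 2-fold changes. The simulation gave every gene that common spread. Members such as Slc25a27 and Slc25a34, which varied by 51.6% and 32% among ΔDMR1-U2 libraries, spread more, so these shares do not apply to them. The 3 count ratios were tested by exact permutation of libraries. Merged exon lengths, positions and shared 50-base stretches came from GENCODE vM21 on mm10. Intervals and floors cover counting error only where they come from counts.

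Members, lists and tests were chosen with earlier results of these data known. Genes were named if called, if at an unadjusted p under 0.05, if the most abundant of a role group, or if among the 2 with the largest log2 fold change in each direction. From each further list the called genes, or else the most abundant, were named. The other members were named, after their values were seen, as were Ucp2, Ucp3, Tomm6, Timm13, Timm22 and Tomm40. Alternatives were DESeq2 1.42.0, DESeq2 size factors, no filter on low counts, a replicate block, and leaving out libraries. For 1 member, counted in the totals, no value of its own is reported here. The table held 0 columns of other samples. Sequences were from RefSeq.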

Additional observations from a re-analysis of the deposited data

Results flagged for a closer look

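In 4 of 76 groups of 4 libraries, the highest or lowest library of a tested member or of a ratio lay farther from the rest than Dixon's 95% limit allows. Chance flags about 1 in 20 groups. Slc25a24 was at 53.6 CPM in ΔDMR1-U2 library 1B, below 82.3 to 86.7 CPM in the other ΔDMR1-U2 libraries. Slc25a38 was at 9.28 CPM in the same library, above 4.59 to 4.88 CPM in the others. Slc25a26 was at 7.94 CPM in ΔDMR1-U2 library 3, above 6.74 to 6.77 CPM in the others. Slc25a28 was at 12.9 CPM in wild-type library 3, above 10.6 to 11 CPM in the others.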

How the results depend on the processing

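The count of Slc25 members called higher was 0 in edgeR and 2 with DESeq2, and 0 to 1 when 1 library was left out (1 without ΔDMR1-U2 library 2). Members called lower stayed at 0 in all 13 alternatives. Over them, 25 of 35 members kept the sign of their log2 fold change and 2 were called in any. With the replicate label as a block, 0 members were called, the median log2 fold change was -0.03 and the calls over all genes went from 172 to 13. Same-labelled libraries correlated at -0.216 to -0.0802, and 0 of 4 ΔDMR1-U2 libraries correlated best with its own number, so the labels were not taken as pairs. In that block fit Slc25a42 was at -0.01. Without ΔDMR1-U2 libraries 1A and 1B together, the log2 fold changes that turned sign were -0.04 for Slc25a14, -0.01 for Slc25a17, 0.04 for Slc25a26, 0.13 for Slc25a29, -0.03 for Slc25a38 and 0.08 for Slc25a47. With 1 library left out, the ranges that cross 0 were -0.12 to 0.01 for Slc25a4, -0.08 to 0.00 for Slc25a26, -0.09 to 0.06 for Slc25a28, -0.31 to 0.02 for Slc25a29, -0.04 to 0.63 for Slc25a33, -0.02 to 0.38 for Slc25a38 and -0.16 to 0.11 for Slc25a42. None of these members was called in any alternative, and the cause was not tested. Calls over all genes were 930 with DESeq2, 241 with no filter, and 7 to 631 with 1 library left out. Depth was lowest for Slc25a2, with 6 to 24 counts per library, and Slc25a35, with 7 to 18, among the tested members.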
